A study of Homo sapiens with 4 samples.

Results

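The genes described here are the human F-box and BTB-Kelch adaptors of ubiquitin ligases. They were taken as every coding gene whose symbol is FBXO, FBXL, FBXW, KLHL, KBTBD or BTBD followed by digits, and their peaks of m6A (N6-methyladenosine, adenosine methylated within messenger RNA) were read from both peak lists. The rule found 121 of the 20056 annotated coding genes, of which 63 were F-box genes and 58 were BTB-Kelch genes. Of these, 85 carried at least 1 peak in either list (45 F-box and 40 BTB-Kelch), among 10348 coding genes with a peak. The members held 179 of 23623 peaks in the Ctrl library and 158 of 23134 in the Cas library. The rule uses gene symbols only and no measured value, although it was set with earlier results of these data known. BTBD genes were kept in the BTB-Kelch class by the rule, although their proteins carry a BTB domain without Kelch repeats.

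MeRIP-seq was used, an assay that enriches messenger RNA fragments with an m6A antibody before sequencing. The cells were HEK293T, an established human embryonic kidney line, and both groups carry the same treatment label: co-transfection by polyethylenimine of dCas13b-M14, a construct on a Cas13b protein whose prefix denotes loss of cutting, with a guide RNA. The series' design text names methylation directed to sites in YTHDF2, SPEN and GAPDH, none of them a member, while the labels do not say how the group Ctrl differed from the group Cas or which guide each received. Each group had 1 input and 1 immunoprecipitated library, the lists come from the 2 immunoprecipitated ones, and the inputs were not used here. The lists hold positions without counts or scores, so the depth is unknown, no p-value was computed, and intervals are Wilson 95% intervals that cover the counting of peaks or genes only, treat peaks of 1 gene as independent and hold no replicate error. A gene without a listed peak is not thereby shown to be unmethylated.

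F-box proteins bind SKP1 through the F-box and thereby join the CUL1 scaffold and the RING protein RBX1, while the rest of the protein (leucine-rich repeats in FBXL, WD40 repeats in FBXW, other domains in FBXO) holds the substrate. BTB-Kelch proteins join both functions in 1 chain: the BTB domain binds CUL3 and the Kelch propeller holds the substrate. In both families the adaptor decides which protein receives ubiquitin, so the families reach into the cell cycle, iron and insulin sensing and muscle upkeep.

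The sequences below are shown because they are examples of coding stretches in which the peaks of the 2 libraries met over GGACT, the most familiar form of the m6A motif DRACH (D is A, G or T, R is A or G, H is A, C or T). Each has 61 bases, lies within 1 exon of a member whose 5′ end matched the RefSeq gene, and is written 5′ to 3′ on the transcript strand of GRCh38 from the GENCODE release 29 transcript. Capitals mark GGACT, whose A is at position 31. FBXW2, a WD40 adaptor, held its window at chr9:120764619-120764679 (minus strand) in an exon of 7874 nt. KBTBD4, a CUL3 adaptor, held 1 window at chr11:47577651-47577711 (minus) in an exon of 618 nt and a second at chr11:47573285-47573345 (minus) in an exon of 1593 nt. KLHL11 held its window at chr17:41854722-41854782 (minus) in an exon of 1777 nt. KLHL41, best known for stabilising sarcomere proteins in muscle, held its window at chr2:169510257-169510317 (plus) in an exon of 1187 nt.
FBXW2: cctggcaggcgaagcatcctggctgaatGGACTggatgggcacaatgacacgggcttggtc
KBTBD4, first window: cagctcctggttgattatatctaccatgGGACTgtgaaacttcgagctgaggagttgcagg
KBTBD4, second window: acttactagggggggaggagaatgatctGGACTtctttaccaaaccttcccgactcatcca
KLHL11: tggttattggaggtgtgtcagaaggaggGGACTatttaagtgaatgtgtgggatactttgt
KLHL41: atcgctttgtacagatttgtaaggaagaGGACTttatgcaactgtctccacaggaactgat

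The F-box and BTB-Kelch genes had similar numbers of peaks, close to those of other coding genes. Peaks were listed in both libraries on 36 F-box genes (80.0% of those with a peak) and 35 BTB-Kelch genes (87.5%), where 86.7% of all coding genes with a peak had them in both. The mean number per gene with a peak was 2.11 in Ctrl and 2.14 in Cas for F-box genes, against 2.21 and 2.19 for BTB-Kelch genes and 2.25 and 2.32 for all coding genes. At least 3 peaks were listed on 29.5% of the F-box genes in Ctrl and 29.7% in Cas, and on 35.9% and 36.1% of the BTB-Kelch genes, with 32.1% and 34.1% of all coding genes between them. The median width was 175 nt in Ctrl and 209 nt in Cas for F-box peaks, and 230 and 209 nt for BTB-Kelch peaks, against 195 and 189 nt for all coding genes. The classes thus lay on either side of the coding background in Ctrl width and at the same median width in Cas. The other 36 members had no listed peak, among them KLHL40 and KBTBD13, adaptors known from skeletal muscle, and KLHL3, which targets WNK kinases in the kidney. Other muscle adaptors had peaks: KLHL41 held 1 in each library and FBXO32 held 1 in Ctrl. A peak was listed on 85 of 121 members, beside 10348 of all 20056 annotated coding genes.

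**Figure D1:**
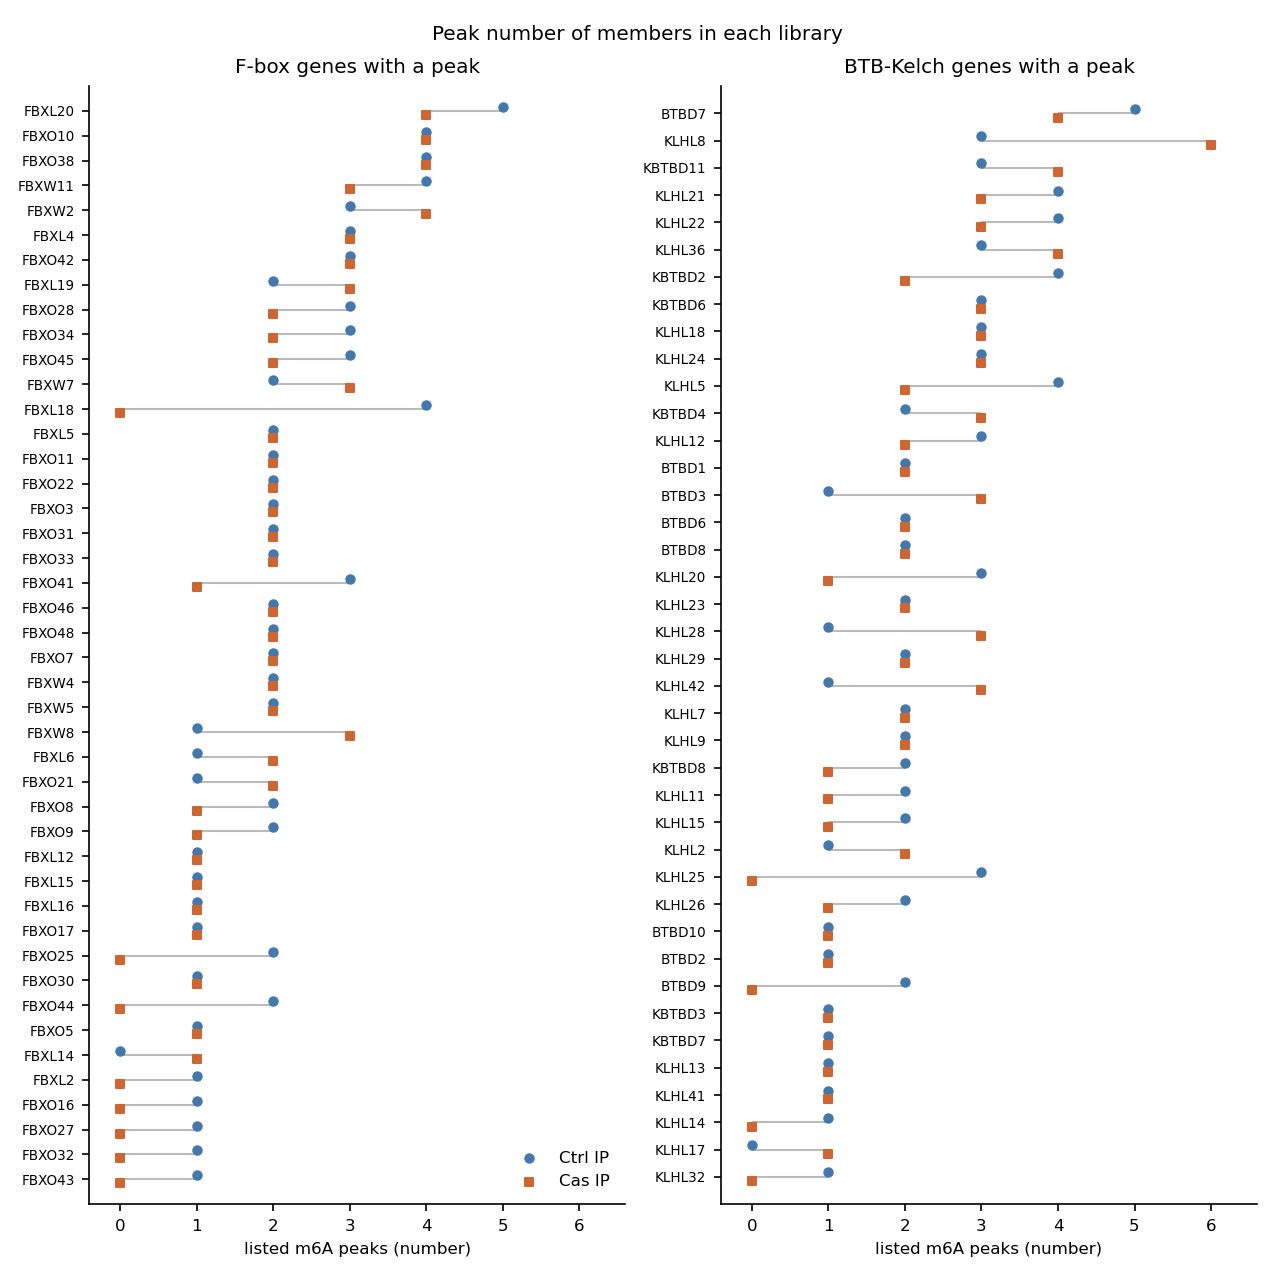
Number of listed m6A peaks on 84 of the 85 members with a peak (horizontal axis, number of peaks), with a circle for the Ctrl and a square for the Cas immunoprecipitated library joined by a line. KLHL8 has 3 peaks in Ctrl and 6 in Cas, and FBXL18 has 4 in Ctrl and 0 in Cas.

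Peaks in the Ctrl library alone were listed on 8 F-box genes (17.8% of 45, interval 9.29 to 31.3%) and on 4 BTB-Kelch genes (10.0% of 40, 3.96 to 23.1%), where 8.92% of all coding genes with a peak were Ctrl only. Peaks in the Cas library alone were listed on 1 F-box gene (2.22%) and 1 BTB-Kelch gene (2.50%), where the background was 4.42%. The interval of the F-box Ctrl-only share starts just above the background and that of the BTB-Kelch share spans it. The lean toward Ctrl among F-box genes was not seen with the wider 50% of each list, cut in each library separately. In that setting 7 F-box genes were Ctrl only and 8 Cas only, and for BTB-Kelch genes these counts were 6 and 4. The shares over all coding genes were not computed in that setting. The change can therefore not be read as particular to these classes, and its cause was not tested. The 12 Ctrl-only members held 20 peaks with a median width of 150 nt, and 7 of them had a single peak. Over all 923 Ctrl-only coding genes the median width was 140 nt, and 640 of them had a single peak.

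FBXL18, a leucine-rich-repeat F-box gene (chromosome 7, 5454425 to 5513809), held the most peaks of these 12 genes, with Ctrl peaks at transcript positions 832 to 1227, 1537 to 1657, 2266 to 2366 and 2811 to 3010, 818 bases in all. No Cas peak was listed on it, so none of its Ctrl peaks recurred. KLHL25, known for the ubiquitination of the translation repressor 4E-BP1 (chromosome 15, 85759326 to 85794925), held Ctrl peaks at 1261 to 1450, 1611 to 1950 and 2171 to 2349, 709 bases in all. BTBD9, a BTB gene tied by genetic studies to restless legs syndrome, held Ctrl peaks at 2501 to 2650 and 3051 to 3150. FBXL2 held 1 Ctrl peak at 2181 to 2350. FBXO25 and FBXO44 held 2 Ctrl peaks each, and on both genes the narrower one had 100 nt. FBXO16, FBXO27, KLHL14 and KLHL32 held 1 Ctrl peak each, of 123, 150, 131 and 157 nt, so their place in the group rests on 1 narrow peak. FBXO32, the muscle-atrophy adaptor atrogin-1, held 1 Ctrl peak of 109 nt at 1373 to 1481. In the Cas library alone, FBXL14, an adaptor for SNAIL1, held 1 peak of 150 nt, and KLHL17, a neuronal actin-binding adaptor, held 1 of 100 nt, the narrowest width in the members' lists.

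Where both libraries had peaks on a gene, their number was equal on 22 of 36 F-box genes (61.1%) and on 16 of 35 BTB-Kelch genes (45.7%), against 55.3% of all coding genes. More peaks in Ctrl were listed on 8 F-box genes (22.2%) and 11 BTB-Kelch genes (31.4%), and more in Cas on 6 (16.7%) and 8 (22.9%). Differences therefore ran in both directions in both classes. More Ctrl peaks were the commoner difference in both classes, whereas over all coding genes 20.1% had more in Ctrl and 24.6% more in Cas. The intervals of the class shares span these background values.

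Among the F-box adaptors of the cell cycle and of signalling, FBXW11, the β-TrCP2 adaptor that recognises phosphorylated β-catenin and IκB (chromosome 5, 171861549 to 172006638), held Ctrl peaks at 441 to 730, 791 to 980, 1163 to 1480 and 2030 to 2243 and Cas peaks at 452 to 940, 1158 to 1460 and 2061 to 2448. The first 2 Ctrl peaks meet 1 Cas peak, so the smaller Cas number goes with 1180 covered bases against 1012. FBXW7, the adaptor for cyclin E and MYC, held Ctrl peaks at 1198 to 1600 and 3050 to 3308 and Cas peaks at 1189 to 1586, 3038 to 3502 and 3581 to 3783. Both Ctrl peaks recur and a further Cas peak follows them. FBXO5, the APC/C inhibitor Emi1, held 1 peak per library, at 528 to 790 in Ctrl and 549 to 797 in Cas. FBXO10, an adaptor reported for BCL2, held 4 peaks in each library, and all 4 overlapped.

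FBXL5, the iron-sensing adaptor for the iron regulatory protein IREB2, held Ctrl peaks at 330 to 486 and 1723 to 1894 and Cas peaks at 337 to 475 and 1725 to 1909, so both peaks recurred with ends that moved by 15 bases or fewer. FBXW8, which joins CUL7, held the widest F-box peak, 705 nt at 2566 to 3270 in Ctrl, where Cas had peaks at 2591 to 2720 and 2751 to 3072 and a further one at 433 to 540. The wide Ctrl peak thus faces 2 Cas peaks. FBXW2 held 3 peaks in Ctrl and 4 in Cas, and the extra Cas peak was at 378 to 680. FBXL20 held 5 Ctrl and 4 Cas peaks, of which 2 in each library overlapped. FBXO38 held 4 in each library, of which 3 overlapped. FBXO41, a neuronal F-box gene, held 3 Ctrl peaks and 1 Cas peak, and was the 1 member with peaks in both libraries and no overlap.

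Of the BTB-Kelch genes, KLHL8 (chromosome 4, 87160103 to 87240531) held the most Cas peaks. Its Ctrl peaks were at 795 to 1043, 2121 to 2349 and 4758 to 4977, and its Cas peaks at 314 to 484, 742 to 1080, 1471 to 1680, 2071 to 2428, 3711 to 3900 and 4661 to 4978. Each Ctrl peak lies inside a Cas peak, and 3 further Cas peaks stand apart from them, so covered bases went from 698 to 1586. BTBD7, a BTB gene known from branching morphogenesis (chromosome 14, 93237550 to 93333036), held 5 Ctrl peaks over 1179 bases and 4 Cas peaks over 1802 bases. Its Cas peak at 2786 to 3829, of 1044 nt, was the widest on a member, where Ctrl had 1 peak at 3387 to 3785. KLHL36 and KBTBD11 each held 3 Ctrl and 4 Cas peaks, and BTBD3, a regulator of dendrite orientation, held 1 and 3.

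In the other direction, KBTBD2, the adaptor for the p85α subunit in insulin signalling (chromosome 7, 32868172 to 32892166), held Ctrl peaks at 1111 to 1340, 1744 to 1916, 2021 to 2165 and 2271 to 2535 and Cas peaks at 1744 to 1887 and 2297 to 2548. Of these, Cas met only the second and the last Ctrl peak. KLHL20, an adaptor for the PML protein, held Ctrl peaks at 18 to 161, 386 to 701 and 1821 to 2117, of which the middle one alone met a Cas peak, at 411 to 712. KLHL5 held 4 Ctrl and 2 Cas peaks, KLHL21, an adaptor for Aurora B, held 4 and 3, and KLHL12, an adaptor for the COPII coat protein SEC31, held 3 and 2. KLHL9, a partner of KLHL13 in regulating Aurora B, held Ctrl peaks at 1139 to 1450 and 1732 to 1926 and Cas peaks at 1171 to 1520 and 1745 to 1926, so its 2 peaks recurred. The KLHL9 and KLHL13 coding sequences share 87.3% of 1839 aligned bases, a pair chosen after its positions were seen. On their models, the first KLHL9 peak lies over the place of a KLHL13 peak in both libraries, and the second does not. Annotated pseudogene copies exist for some members, among them BTBD6, BTBD7, BTBD10, FBXW11, KLHL5, KLHL12 and KLHL25, and no source used here gives how reads shared with them were counted.

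Peak positions were shared between the libraries to a similar degree in both classes. In Ctrl, 67 of 93 F-box peaks (72.0%, 62.2 to 80.1%) and 62 of 86 BTB-Kelch peaks (72.1%, 61.8 to 80.5%) overlapped a Cas peak by at least 1 base, where 76.4% of all coding peaks did. In Cas, 66 of 79 F-box peaks (83.5%, 73.9 to 90.1%) and 63 of 79 BTB-Kelch peaks (79.7%, 69.6 to 87.1%) overlapped a Ctrl peak, where 78.1% did. These 4 intervals span the background. Overlapped peaks were wider than the rest, with medians of 198 against 150 nt for F-box and 259.5 against 144.5 nt for BTB-Kelch peaks in Ctrl, and of 219.5 against 120 nt and 252 against 154 nt in Cas. Over all coding genes these medians were 211 against 145 nt in Ctrl and 201 against 150 nt in Cas. FBXW genes had 14 of 14 peaks overlapped in Ctrl (78.5 to 100%) and 82.4% in Cas. The shares in Ctrl and Cas were 67.3% and 87.8% for FBXO, 66.7% and 76.2% for FBXL, 70.4% and 77.6% for KLHL, 81.2% and 93.3% for KBTBD, and 68.8% and 73.3% for BTBD genes, so the order of the families differed between the libraries. Among overlapping pairs, identical ends in both libraries were found for FBXL4 (742 to 956), for FBXO28 (234 to 530) and for KLHL23 (1130 to 1395). Both ends lay within 10 nt in 8 of 68 F-box pairs and 8 of 63 BTB-Kelch pairs. Pairs over all coding genes were not counted, so these numbers have no background beside them. BTBD6 held Ctrl peaks at 791 to 1029 and 1337 to 1566 and Cas peaks at 789 to 992 and 1332 to 1575, so both of its peaks recurred.

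Placed on transcript models, which 71 of the 85 members had, F-box peaks lay less often in the coding sequence and more often in the 3′ UTR than BTB-Kelch peaks, with intervals that overlap. Coding sequence outside the stop codon window (200 nt on either side) held 40.7% of F-box peaks in Ctrl (30.7 to 51.6%) and 42.2% in Cas (30.9 to 54.4%). It held 55.4% of BTB-Kelch peaks in Ctrl (43.3 to 66.8%) and 55.2% in Cas (42.5 to 67.3%), where the coding background was 50% and 52.2%. The BTB-Kelch shares lie above the background and the F-box shares below it, and all 4 intervals span it.

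The 3′ UTR held 32.1% of F-box peaks in Ctrl (22.9 to 42.9%) and 31.2% in Cas (21.2 to 43.4%), and 21.5% and 20.7% of BTB-Kelch peaks, where the background was 22.8% and 22.2%. The F-box Ctrl interval begins just above its background. The stop codon window held 23.5% of F-box peaks in Ctrl and 21.9% in Cas, and 18.5% and 17.2% of BTB-Kelch peaks, beside 23.0% and 22.0% over all coding genes. The 5′ UTR held 3.70% and 4.69% of F-box peaks and 4.62% and 6.90% of BTB-Kelch peaks, beside 4.17% and 3.64%. FBXL20 is an example with many 3′ UTR peaks: those at 3379 to 3479, 4568 to 4704, 5083 to 5208, 9383 to 9483, 9691 to 9860 and 10061 to 10210, taken over both libraries, lie there on its model.

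**Figure D2:**
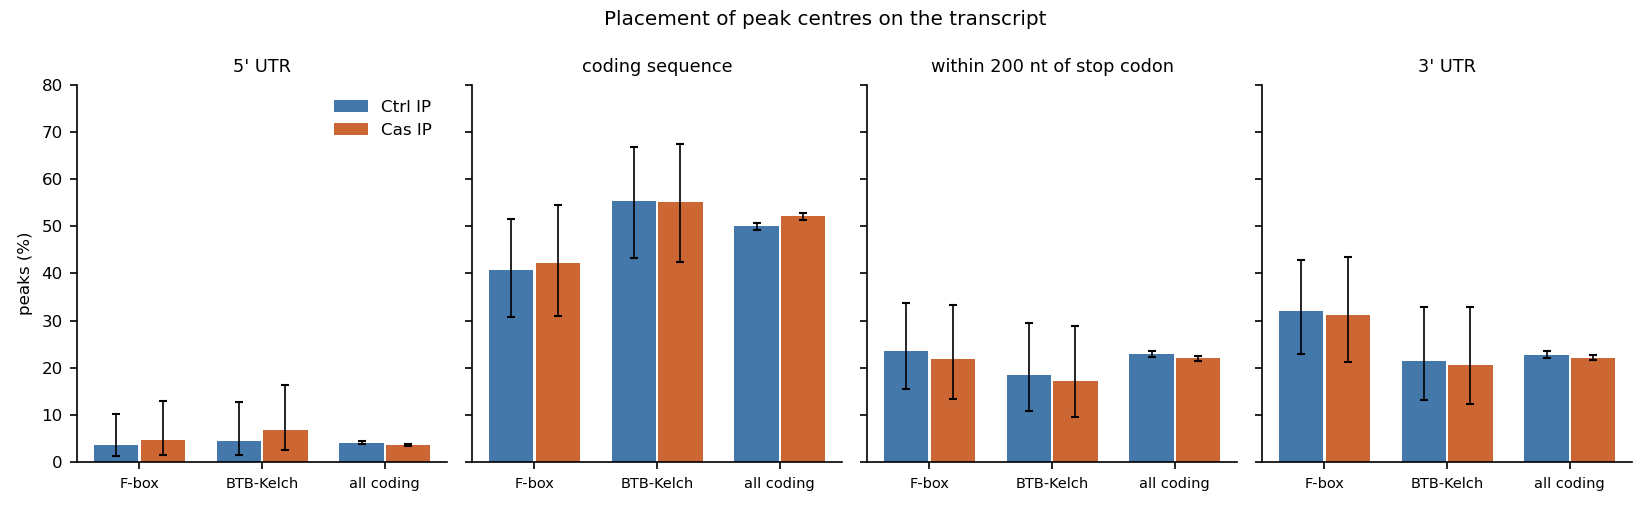
Share of peaks (percent, vertical axis) whose centre lay in the 5′ UTR, the coding sequence, the 200 nt on either side of the stop codon or the 3′ UTR, for F-box, BTB-Kelch and all coding genes in each library, with Wilson 95% intervals that cover the counting of peaks only. BTB-Kelch bars are higher than F-box bars in the coding sequence (55.4% against 40.7% in Ctrl) and lower in the 3′ UTR (21.5% against 32.1%).

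Along the coding sequence, the peaks centred in it had median positions of 65.7% of its length in Ctrl and 59.5% in Cas for F-box genes and 60.4% and 55.7% for BTB-Kelch genes, beside 56.3% and 55.1% over all coding genes. The quartiles of the classes overlapped widely, from 27.5 to 86.2% for F-box and from 28.5 to 80.2% for BTB-Kelch peaks in Ctrl.

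Of the shares described here, the classes stood furthest apart in the exons that held their coding peaks. Peaks centred in coding sequence, the stop codon window included, lay in an exon of at least 400 nt for 38 of 43 BTB-Kelch peaks in Ctrl (88.4%, 75.5 to 94.9%) and 34 of 38 in Cas (89.5%, 75.9 to 95.8%). The F-box values were 21 of 45 (46.7%, 32.9 to 60.9%) and 18 of 37 (48.6%, 33.4 to 64.1%), and the coding background was 52.2% and 47.9%. The BTB-Kelch intervals lie above those of the F-box genes and above the background in both libraries, while the F-box intervals span it. Without the BTBD genes, a choice made after seeing the data, the BTB-Kelch shares were 85.3% and 86.2%. By family the Ctrl shares were 53.6% of 28 peaks for FBXO, 45.5% of 11 for FBXL and 16.7% of 6 for FBXW genes. They were 82.6% of 23 for KLHL, 90.9% of 11 for KBTBD and 100% of 9 for BTBD genes. These numbers are small, and the FBXW interval runs from 3.01 to 56.4%, with a share of 33.3% in Cas. Of the KBTBD coding bases, 94.4% lay in such exons, so few KBTBD coding peaks could lie elsewhere. The median exon holding such a peak had 1454 nt in Ctrl for BTB-Kelch genes and 346 nt for F-box genes.

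Gene structure also differed between the classes, and whether it bears on the place of the peaks was not tested. Of the coding bases of the genes with a peak and a model, 63.5% lay in exons of at least 400 nt for BTB-Kelch genes, 45.2% for F-box genes and 33.8% for all coding genes, and the median exon number was 6, 8.5 and 9. The single-exon members were KBTBD6, KBTBD7 and KLHL9. Last exons held 51.2% of the BTB-Kelch coding peaks in Ctrl and 57.9% in Cas, against 26.7% and 29.7% of the F-box peaks and 28.8% and 26.0% over all coding genes. With peaks in last exons left out, 76.2% of 21 BTB-Kelch peaks in Ctrl and 81.2% of 16 in Cas lay in long exons, against 27.3% of 33 and 26.9% of 26 F-box peaks and 34.4% and 30.9% over all coding genes. Each coding peak lay in a long exon on 23 of 27 BTB-Kelch genes in Ctrl and on 8 of 29 F-box genes, where it did on 2674 of 6298 coding genes. The Ctrl exceptions were KBTBD8, KLHL7, KLHL12 and KLHL42, and the Cas exceptions KLHL2, KLHL7 and KLHL28.

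**Figure D3:**
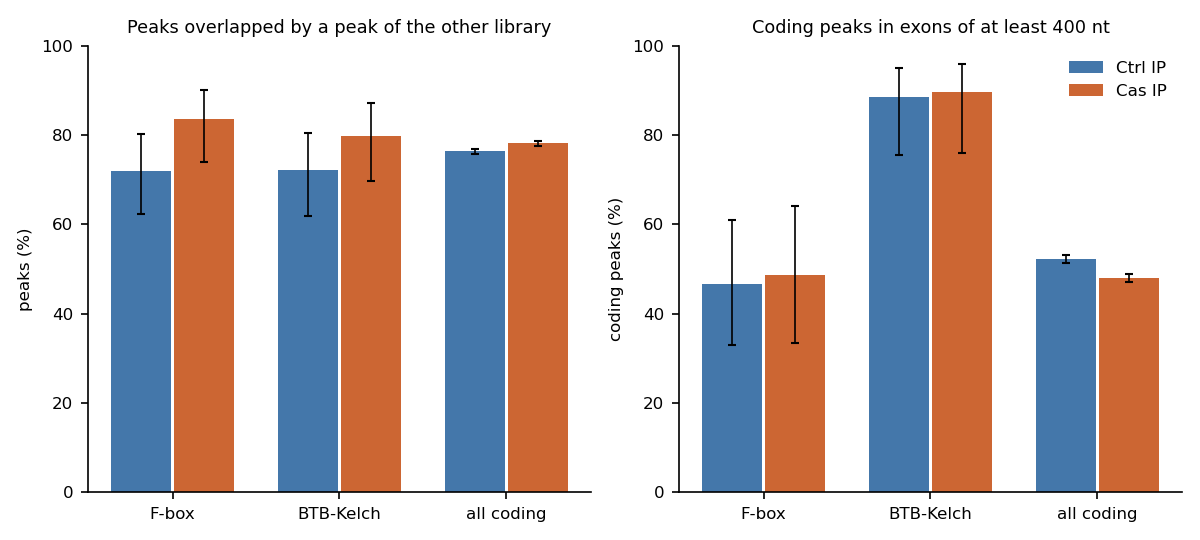
Left, share of peaks (percent) overlapped by the other library, and right, share of coding peaks (percent) in exons of at least 400 nt, for F-box, BTB-Kelch and all coding genes in each library, with Wilson 95% intervals that cover the counting of peaks only. BTB-Kelch bars reach 88.4% and 89.5% on the right, F-box bars 46.7% and 48.6%.

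**Figure D4:**
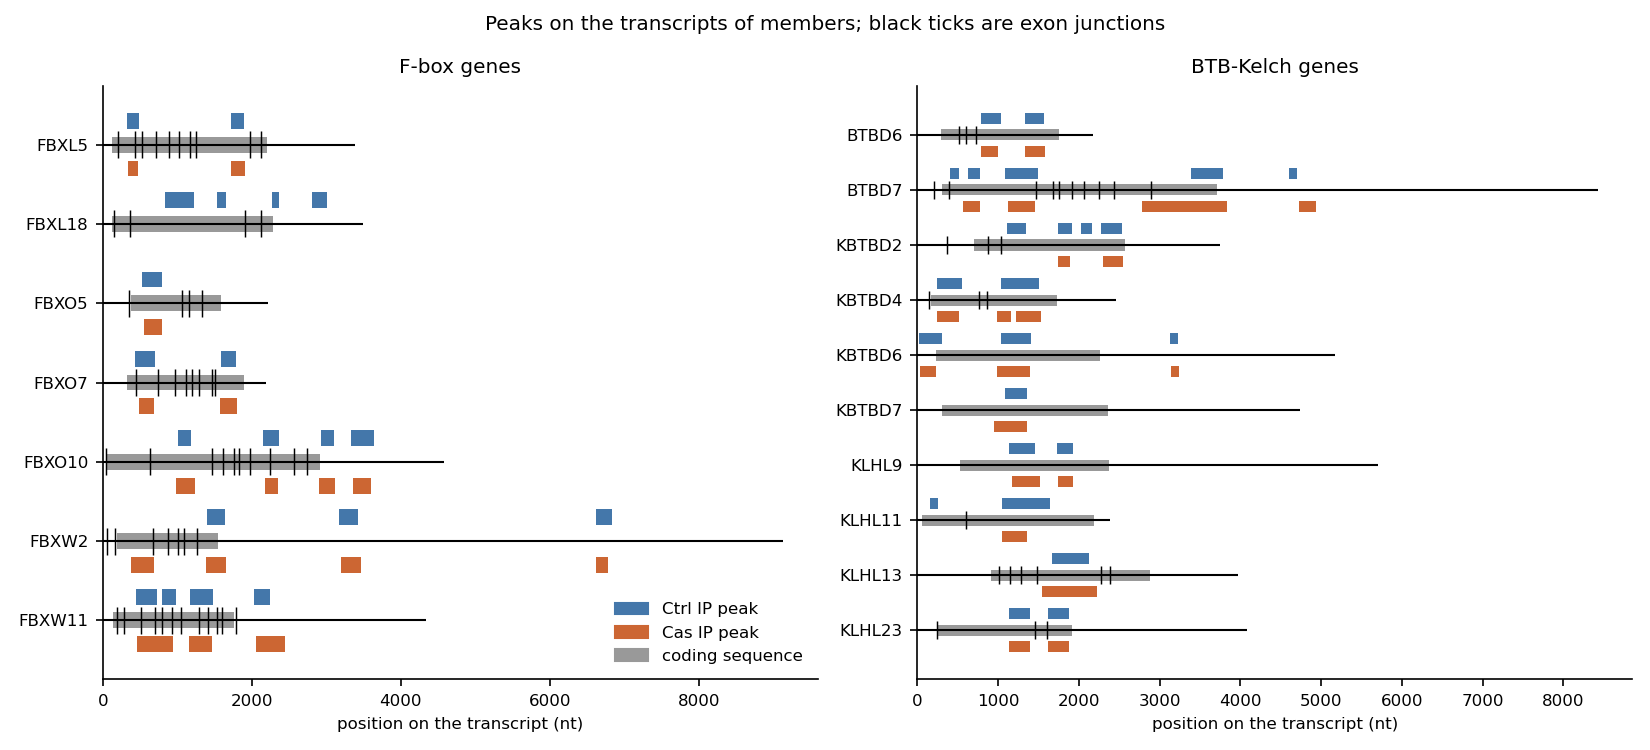
Peaks of the Ctrl and the Cas library along the transcripts of 17 members (horizontal axis, position in nt from the transcript start), chosen after their positions were seen; grey marks the coding sequence and ticks mark exon junctions. KLHL9, KBTBD6 and KBTBD7 show no junction, and FBXL18 shows peaks in Ctrl alone.

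GGACT was found in 29 of 81 F-box peaks in Ctrl (35.8%, 26.2 to 46.7%) and 24 of 64 in Cas (37.5%, 26.7 to 49.7%), searched on the transcript strand of the model. It was found in 25 of 65 BTB-Kelch peaks in Ctrl (38.5%, 27.6 to 50.6%) and 17 of 58 in Cas (29.3%, 19.2 to 42.0%), where 27.5% and 25.7% of all coding peaks held it. Of these 4 shares, the BTB-Kelch share in Ctrl begins just above the background and the F-box share in Cas does too, while the other two span it. Wider peaks hold more motifs by length alone, so the number per kb of peak is given as well: 2.34 in Ctrl and 1.97 in Cas for F-box, 2.21 and 1.59 for BTB-Kelch, and 1.5 and 1.41 for all coding genes. Over whole transcripts the number per kb was 1.03, 0.936 and 0.964. DRACH was found in 93.1 to 96.3% of the members' peaks, beside 97.3% and 97.1% of all coding peaks. A motif inside a peak is a description of these letters and not a mapped site.

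The closely related pair KBTBD6 and KBTBD7, which act together as CUL3 adaptors for TIAM1, held peaks over a coding stretch that both genes share. KBTBD6 had 3 peaks in each library, in the 5′ UTR, coding sequence and 3′ UTR, and KBTBD7 had 1 coding peak in each. Their coding sequences share 91.8% of 2022 aligned bases. Counted from the first coding base, KBTBD6 peaks spanned 802 to 1175 in Ctrl and 750 to 1162 in Cas, and KBTBD7 peaks spanned 770 to 1043 and 640 to 1051. GGACT with its A at coding base 827 was inside the peaks of both genes in both libraries. The 41 bases around it were identical (KBTBD6 at chr13:41131665-41131705, KBTBD7 at chr13:41193411-41193451, minus strand). Reads lying wholly within these bases could come from either gene, and no source used here gives how such reads were counted. The shared window is shown first. At coding base 1141, where KBTBD6 peaks held a GGACT, KBTBD7 had the substitution G1139A (KBTBD6 base first, counted from the first coding base) and no listed peak there (KBTBD6 at chr13:41131351-41131391, KBTBD7 at chr13:41193097-41193137, minus strand). The changed KBTBD7 letters still form a DRACH motif, the printed windows differ at other bases too, and whether the substitution bears on the peak was not tested. The KBTBD6 model starts 56 nt from the RefSeq gene, and with positions moved by that amount its peaks no longer reach base 1141. Capitals mark GGACT, and the pair was chosen after its positions were seen.
KBTBD6 and KBTBD7, base 827: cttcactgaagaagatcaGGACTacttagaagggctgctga
KBTBD6, base 1141: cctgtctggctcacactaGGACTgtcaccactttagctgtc
KBTBD7, base 1141: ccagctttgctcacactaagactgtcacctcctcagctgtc

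The rest of the ligase machinery, from a list of 36 core genes, carried peaks in both libraries on 30 genes, in Ctrl alone on RNF7 and UBE2M, in Cas alone on RBX1, DCUN1D5 and COPS7A, and on SENP8 in neither. Of the 35 core genes with a peak, 30 thus had one in both libraries, a share near the background of 86.7% (8.92% Ctrl only and 4.42% Cas only). The scaffold CUL1 held 2 peaks in each library, CUL3, the scaffold of the BTB-Kelch ligases, held 1 in Ctrl and 2 in Cas, and SKP1, the F-box linker, held 1 in each. CAND1, which exchanges adaptors on the cullins, and ARIH1, a ubiquitin-transfer partner of neddylated cullins, held 5 peaks in each. Of 8 F-box genes with other symbols, 7 were listed in both and 1 in neither, with SKP2, the adaptor for p27, at 3 Ctrl peaks and 1 Cas peak and BTRC, the other β-TrCP gene, at 3 and 4. Of 5 further Kelch genes, 4 were listed in both and 1 in neither, with KEAP1, the sensor that restrains NFE2L2, at 1 peak in each library, and ENC1 at 4 and 3.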

How the data were processed

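Peak lists of m6A in HEK293T cells were analysed for the 2 immunoprecipitated libraries, Ctrl and Cas, with 1 library per group. As deposited by the authors, each line gives a RefSeq transcript, a start and an end along it counted from 1, a further position of unstated meaning that was not used, and a plus strand on every line. Tools in the submitters' processing notes are HISAT2, fastp, FastQC, SAMtools, HOMER and edgeR, with no role or version, and the build is GRCh38. Details of peak calling (program, threshold, input, transcript release) were not given in the sources used here.

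Transcripts were matched to RefSeq gene names, and 490 Ctrl and 518 Cas peaks matched no gene. Peaks overlapping by at least 1 base on the same transcript counted as shared. Regions, exons and motifs were read from a GENCODE release 29 transcript. It had to be the only one listed for the RefSeq transcript, have a coding sequence and be long enough for every peak. This gave models for 71 of 85 members with a peak, and in 18 the 5′ end lay within 10 nt of the RefSeq gene, so positions are approximate. Peaks were placed by their centre. Python 3.11.15, pandas 2.3.3, numpy 2.4.6 and matplotlib 3.10.9 were used, and the counting was tested on simulated data. The members and lists were chosen with earlier results of these data known.

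Genes were named by rule: members with peaks in 1 library only (at most 10 per library, those with most peaks), in each class the 5 with most peaks, the 2 largest gains, the 2 largest losses and the widest peak, and well-studied adaptors. Other genes were named after their values were seen. Some genes enter the counts but are not reported here by name. Alternatives changed the overlap, the width, the stop codon window, the exon length, the motif and the position of the peaks.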

Additional observations from a re-analysis of the deposited data

How the results depend on the processing

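No paired analysis was possible because there was 1 library in every group, and leaving out replicates could not be run for the same reason. Under a reciprocal overlap of 50%, the overlapped share was 59.1% in Ctrl and 69.6% in Cas for F-box peaks and 54.7% and 59.5% for BTB-Kelch peaks. With the wider 50% of each list, the overlapped Cas share was 59.1% for F-box and 68.8% for BTB-Kelch, Cas-only members numbered 8 and 4, the BTB-Kelch coding share in Cas was 70.6%, the stop codon window held 14.7% of F-box Ctrl peaks and 8.82% of BTB-Kelch Cas peaks, and the 3′ UTR held 10.5% of BTB-Kelch Ctrl peaks. Without peaks whose ends fall on a 10-base grid, Cas-only members numbered 0 and 2. For the Cas-only counts in both settings, the share over all coding genes was not computed. A stop codon window of 100 nt held 9.88% and 9.38% of F-box peaks (Ctrl, Cas) and 9.23% and 6.90% of BTB-Kelch peaks. With 5′ ends matched to the RefSeq gene, the 3′ UTR share in Cas was 20% for F-box and 21.4% for BTB-Kelch peaks. In Ctrl it was 23.5% and 17.6%, so the order of the classes differed between the libraries. In that setting the BTB-Kelch long-exon share in Cas was 100% and, in an alternative chosen after seeing the data, the BTB-Kelch GGACT share in Cas 42.9%. With long exons of 1000 nt the shares were 28.9% and 29.7% for F-box and 65.1% and 63.2% for BTB-Kelch. GGACT within 50 nt of the peak centre was found in 22.2% and 20.3% of F-box and 18.5% and 19.0% of BTB-Kelch peaks, and GGAC in 67.9% and 73.4%, and 75.4% and 67.2%. Beyond what a setting itself fixes, the cause was not tested. BTB-Kelch long-exon shares exceeded the F-box shares with exons of 1000 nt, with matched 5′ ends and, chosen after seeing the data, with peaks moved by 100 nt in either direction (77.5 to 94.4%). Depth is unknown, so a missing peak and an unread transcript cannot be told apart.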

Other observations

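Substrates of these adaptors, from a list of 25 genes, carried peaks in both libraries on 20, in 1 library on 3 and in neither on 2, where 86.7% of all coding genes with a peak had them in both. JUN and CDKN1A each held 1 Ctrl peak and 4 Cas peaks, WNK1, a target of KLHL3, held 8 and 9, and IREB2, the target of FBXL5, held 6 and 7. MYC held 1 peak in each library and NFE2L2, the target of KEAP1, 2 and 1. FBXO43 and DVL3 were listed in Ctrl alone, BCL6 in Cas alone, and NOTCH1 and WNK4 in neither.

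Of the 8 Ctrl-only F-box genes, 4 lie on chromosome 8. FBXO16, FBXO25, FBXO32 and FBXO43, the last a meiotic inhibitor of the APC/C that was named after its values were seen, were Ctrl only among 5 F-box genes with a peak there, and FBXL6 was listed in both. KBTBD11, the other member with a peak there, was also listed in both. FBXO16, FBXO32 and FBXO43 rest on 1 Ctrl peak each, of 123, 109 and 100 nt. Of all 361 coding genes with a peak on that chromosome, 35 were Ctrl only (9.70%) and 19 Cas only (5.26%). The place of these F-box genes was noticed after the values were seen and was not tested, and no other chromosome was counted.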
